A study of Homo sapiens with 18 samples.

Results

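GLDC and 9 other genes of serine synthesis, glycine cleavage and mitochondrial one-carbon metabolism were followed across 6 ovarian cancer cell lines. The members were chosen by gene symbol, and the set was drawn up because GLDC was higher in all 3 platinum-resistant lines. Of the 10 genes, 9 were in the expression table of 12853 genes, and AMT was not analysed here. The GLDC change is therefore given as a description with no test, and tests are given for the 8 other measured members.

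The lines form 3 pairs of a platinum-sensitive and a platinum-resistant line, each with 3 replicate RNA-seq libraries (18 in all). A2780 (sensitive) carries the label endometrial/ovarian cancer, and CP70 (resistant) was derived from it by selection in culture. PEA1 (sensitive) and PEA2 (resistant), and PEO1 (sensitive) and PEO4 (resistant), are patient-derived lines from high-grade serous ovarian cancer taken from the same patient before and after clinical resistance. All were grown in RPMI-1640 medium with glutamine and fetal bovine serum, and no drug treatment is stated for the RNA-seq libraries. Each comparison thus sets 1 line against 1 line, and nothing in the labels says that the replicates came from separate cultures, so p-values measure only the spread between these libraries, which may be technical. In bulk RNA, fewer cells expressing a gene and less RNA per cell cannot be told apart.

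Cells make serine from the glycolytic intermediate 3-phosphoglycerate by the successive action of PHGDH, PSAT1 and PSPH. SHMT1 in the cytosol and SHMT2 in mitochondria convert serine to glycine and pass a carbon to folate, and MTHFD2 and MTHFD1L carry that carbon on to formate inside mitochondria, where it can leave for purine and thymidylate synthesis. The glycine cleavage system, a mitochondrial complex of GLDC (the P-protein, which decarboxylates glycine), GCSH (the lipoate-bearing H-protein), AMT (the T-protein) and DLD (the L-protein), breaks glycine down and also feeds folate.

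Each library held between 1344098 and 7067336 reads on genes in the table, and 3 reads, taken as the floor, stood for 0.452 to 2.18 CPM. CPM are the reads of a gene scaled by the library size that the deposited values imply. That size is not the library's total of reads on these genes and in some libraries lies below it. CPM, and the values derived from them below, therefore carry a scaling beyond the total. Values below are the authors' log2 CPM unless another scale is named. The label's tissue was checked against 9 markers of ovarian carcinoma epithelium, all in the table. PAX8, WT1, KRT7, CDH1 and SOX17 had at most 3 reads in every A2780 and CP70 library, so these defining markers were at or near 0 there. In the patient-derived lines PAX8 had 379 to 1276 reads and WT1 at least 7 reads in every library, while KRT7 had at most 3 and CDH1 at most 4 reads in PEA1, and SOX17 at most 1 read in PEO1 and PEO4. The summed CPM of the 9 markers ranged from 1.68 to 2.84 in A2780, 90.3 to 96.0 in CP70, 436 to 590 in PEA1, 3639 to 3869 in PEA2, 6405 to 7428 in PEO1 and 4496 to 6079 in PEO4. Of 4 markers of other cells, PTPRC (leukocytes) and COL3A1 (stroma) were in the table. Their summed CPM ranged from 504 to 707 in A2780 and 816 to 952 in CP70 (nearly all COL3A1), was 0 in PEA1 and 20.1 to 25.1 in PEA2 (PTPRC), and was 0 in PEO1 and 63.1 to 66.8 in PEO4 (COL3A1). Marker levels thus differ between the lines of a pair, and their part in the changes below was not tested.

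GLDC lies on chr9:6532467-6645729 (GRCh37, minus strand, 25 exons in its reference transcript). A transcribed processed pseudogene, GLDCP1, lies on chr4:57459170-57461847 and is in the table as a gene of its own. Over the 2672 bases that align, 69.5% of the GLDC transcript, the pair are 97.8% identical, with 60 mismatches and a longest identical run of 161 bases. Reads from such stretches can be assigned to either gene, so both are uncertain. The 60-base coding stretch with the most mismatches (5), in GLDC exon 8, is shown because it is where the copies are easiest to tell apart. Letters come from the GENCODE transcripts on GRCh37, and capitals mark the bases that differ.
GLDC, chr9:6602146-6602205, - strand: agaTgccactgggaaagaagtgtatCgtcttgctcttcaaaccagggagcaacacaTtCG
GLDCP1, chr4:57459882-57459941, + strand: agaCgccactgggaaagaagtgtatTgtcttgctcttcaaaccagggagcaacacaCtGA

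Promoter letters are shown for GLDC, for 3 members that fell in both CP70 and PEO4 (PHGDH, PSAT1 and MTHFD2) and for MTHFD1L, which rose in both. RefSeq start sites on GRCh38.p14 were listed for 7 of the 9 measured members, and the 250 bases before the start are printed. Capitals mark every match, on either strand, to CCAAT (the box bound by NF-Y), TGATGNAA (letters of the amino acid response element read by ATF4 with a C/EBP partner) and CACGTG (the E-box read by MYC and related factors). MTHFD1L has 4 listed starts, and the one listed first is shown.
GLDC promoter, chr9:6645730-6645979, - strand: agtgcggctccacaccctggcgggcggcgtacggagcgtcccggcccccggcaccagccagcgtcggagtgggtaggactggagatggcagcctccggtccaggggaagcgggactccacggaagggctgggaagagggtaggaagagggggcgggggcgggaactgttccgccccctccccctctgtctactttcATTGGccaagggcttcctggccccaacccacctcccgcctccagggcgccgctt
PHGDH promoter, chr1:119711684-119711933, + strand: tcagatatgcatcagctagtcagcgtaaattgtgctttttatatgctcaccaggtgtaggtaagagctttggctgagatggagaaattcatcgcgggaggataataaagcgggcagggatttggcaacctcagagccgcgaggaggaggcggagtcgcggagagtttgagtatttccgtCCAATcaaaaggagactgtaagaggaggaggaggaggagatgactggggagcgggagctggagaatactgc
PSAT1 promoter, chr9:78296875-78297124, + strand: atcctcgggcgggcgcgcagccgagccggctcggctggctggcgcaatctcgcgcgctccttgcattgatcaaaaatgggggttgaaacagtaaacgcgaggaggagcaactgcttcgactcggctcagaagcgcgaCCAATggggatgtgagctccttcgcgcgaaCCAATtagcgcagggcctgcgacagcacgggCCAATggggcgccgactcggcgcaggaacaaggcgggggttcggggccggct
MTHFD2 promoter, chr2:74198365-74198614, + strand: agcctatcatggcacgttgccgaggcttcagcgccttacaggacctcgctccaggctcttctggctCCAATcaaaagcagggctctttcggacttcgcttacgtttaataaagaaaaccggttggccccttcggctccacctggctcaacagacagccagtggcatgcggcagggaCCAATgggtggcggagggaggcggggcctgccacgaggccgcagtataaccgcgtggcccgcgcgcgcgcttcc
MTHFD1L promoter, chr6:150866236-150866485, + strand: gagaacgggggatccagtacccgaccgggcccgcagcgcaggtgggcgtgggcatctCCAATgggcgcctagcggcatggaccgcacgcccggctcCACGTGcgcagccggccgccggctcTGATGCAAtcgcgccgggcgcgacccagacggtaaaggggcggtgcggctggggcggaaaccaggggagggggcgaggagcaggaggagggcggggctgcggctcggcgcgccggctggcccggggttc

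CCAAT occurred before at least 1 listed start of all 7 members, against 32% of all 35116 promoters of this length in the same table, with 3 copies before PSAT1, 2 before MTHFD2 and 1 before GLDC. The units differ, since the 32% counts single starts and a member counted with any listed start. Start 4 of MTHFD1L had no CCAAT. TGATGNAA and CACGTG, held by 3.14% and 6.34% of all promoters, occurred only before MTHFD1L among these members (at 2 of its 4 starts), and no match overlapped another. A match is a run of letters and not a shown binding site, and a missing match says only that the letters are not in this window.

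GLDC, the glycine decarboxylase itself, was higher in the resistant than in the sensitive line of every pair, and this is the pattern for which the set was chosen. In A2780 the 3 libraries held 22, 35 and 11 reads (log2 CPM 2.65, 3.20 and 2.36), and in CP70 they held 265, 175 and 172 reads (5.44, 5.38 and 5.50). In PEA1 the libraries held 0, 1 and 0 reads (-1.46, 0.10 and -1.80), and in PEA2 they held 14, 25 and 10 reads (2.95, 2.88 and 2.26). In PEO1 there were 5, 3 and 5 reads (0.84, 0.32 and -0.27), and in PEO4 there were 23, 41 and 28 reads (3.02, 3.79 and 3.53). The ranges of the sensitive and resistant libraries did not overlap in any pair. Reads pooled over the 3 libraries were scaled by the library sizes that the deposited values imply. The ratio was 6.17 in CP70 over A2780 (95% exact interval 4.80 to 8.05). It was 29.4 in PEA2 over PEA1 (5.03 to 1184, on a single read in PEA1) and 10.6 in PEO4 over PEO1 (5.89 to 20.6). The intervals cover counting error only, and over all genes the replicate libraries of every line varied beyond it. As these contrasts chose the set, the intervals are no test of a difference. On the log2 scale the fitted differences were 2.70, 3.75 and 3.15 (SE 0.43 each), and 10 genes of the table (0.0778%) were higher in all 3 resistant lines with a log2 fold change (log2FC) above 2 and a false discovery rate (FDR) below 0.05, the thresholds the study states. Since the rule used this contrast, nothing is read from that share. From its own fit at these thresholds, the paper names PARP9, SPHK1, DDX60L and BCAM as higher in all 3 resistant lines, and not GLDC.

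The size of the GLDC difference depended on the scale at these read numbers. Quantile normalization gave 2.31 for CP70 and 4.35 for PEO4, and adding 2 reads in place of 0.5 gave 2.22 for PEA2. Ordered by line mean, GLDC ran from PEA1 (-1.05) through PEO1 (0.30), PEA2 (2.70), A2780 (2.74) and PEO4 (3.45) to CP70 (5.44). PEA1 and PEO1 overlapped in this order, as did PEA2 with A2780 and A2780 with PEO4, so the sensitive line A2780 and the resistant line PEA2 could not be ranked. CP70 stood above all other libraries.

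GLDCP1 followed GLDC. Its libraries held 4 to 21 reads in A2780 and 78 to 144 in CP70, 0 in PEA1 and 4 to 8 in PEA2, and 1 to 4 in PEO1 and 14 to 20 in PEO4. The log2FC was 2.91, 2.88 and 3.04. No test is given, because its reads may be shared with GLDC, whose change chose the set. With all PEA1 libraries at 0 the PEA2 level was at least 1.28-fold higher, taking 3 reads per PEA1 library. Per length, GLDC stood at 1.25 ± 0.31 times GLDCP1 in CP70, 1.34 ± 0.61 in PEO4 and 2.32 ± 1.76 in PEA2 (SD, n = 3). How many reads of each belong to the other was not tested.

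**Figure D1:**
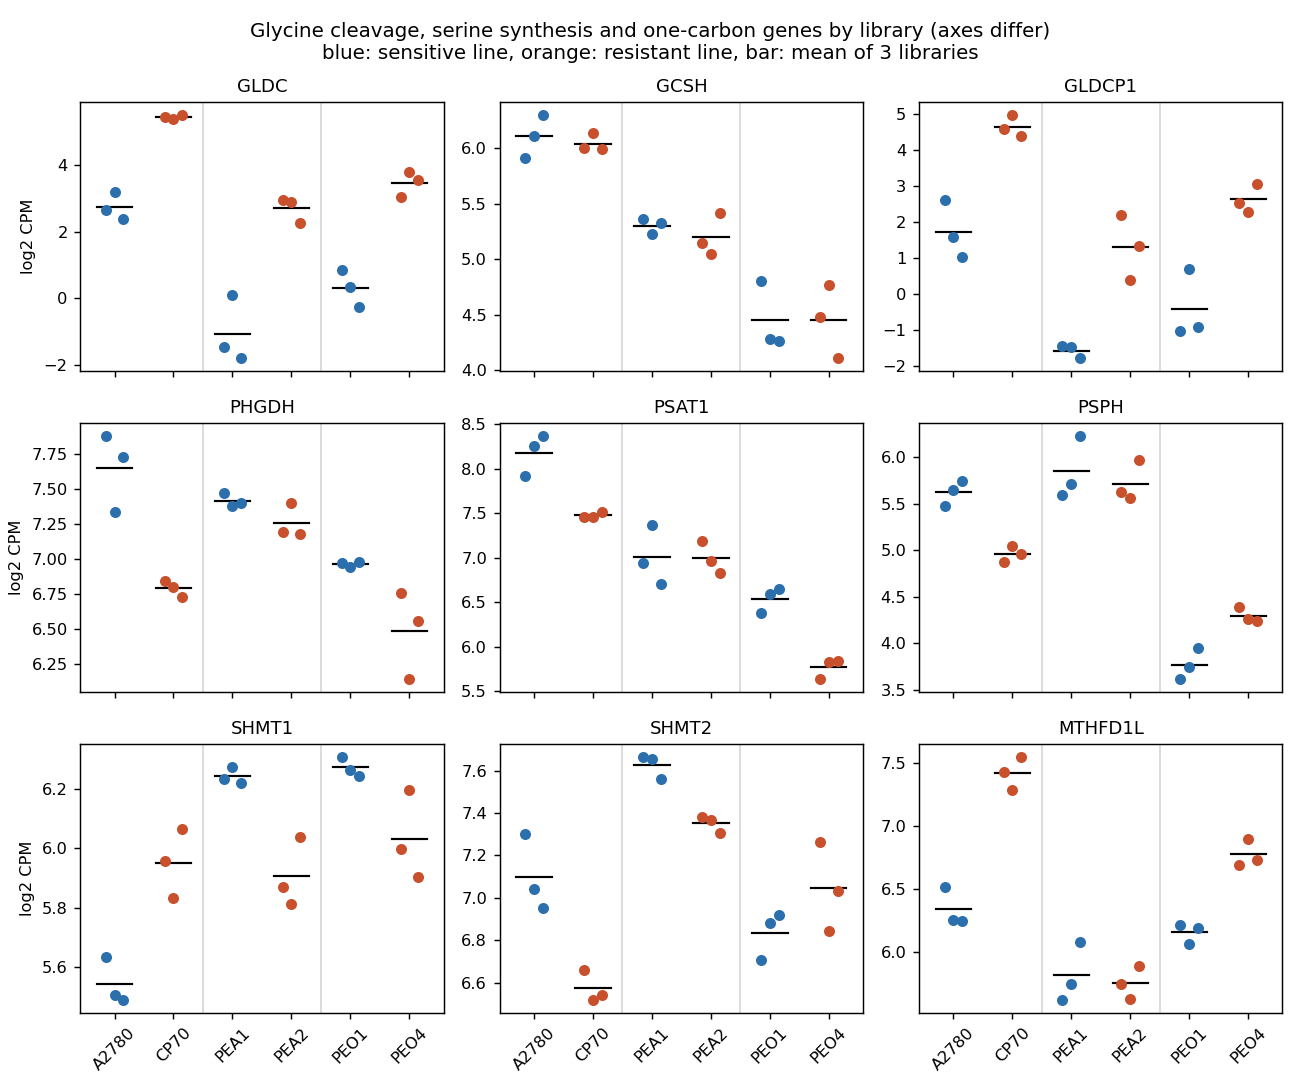
Log2 CPM of 8 members and of the pseudogene GLDCP1 in each of the 18 libraries, by line, with sensitive lines in blue, resistant lines in orange and a bar at the mean of 3 libraries (the vertical axes differ). GLDC and GLDCP1 are higher in the resistant line of every pair, from -1.05 to 2.70 for GLDC in the PEA pair, while the GCSH means of a pair lie within 0.10 of each other.

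In CP70 against A2780, the serine synthesis genes fell together, while the one-carbon enzymes SHMT1 and MTHFD1L rose. Of the 8 members tested, 2 rose (MTHFD1L and SHMT1), 5 fell (PHGDH, PSAT1, PSPH, SHMT2 and MTHFD2) and GCSH did not pass the test (FDR below 0.05 by limma over 12853 genes). In this pair 22.2% of all genes rose and 17.7% fell, so the share of members that fell, 62.5%, lay above that background and the share that rose, 25%, lay near it. The median log2FC of the 8 was -0.45, against -0.025 over all genes. None passed the study's rule of a log2FC beyond 2, which 9.06% of all genes passed.

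PHGDH (chr1:120191034-120286841, plus strand) catalyses the committed step of serine synthesis. Its values were 7.88, 7.34 and 7.73 in A2780 and 6.84, 6.80 and 6.73 in CP70. All CP70 libraries lay below all A2780 libraries, a log2FC of -0.86 ± 0.14 (SE, FDR 3.18e-05). PSAT1 (chr9:80912041-80945009, plus strand), the aminotransferase of the pathway, lies on the same chromosome as GLDC and stood at 7.91, 8.26 and 8.37 in A2780 and 7.46, 7.46 and 7.52 in CP70. The groups did not overlap, and the log2FC was -0.70 ± 0.14 (FDR 0.000565). PSPH (chr7:56078744-56119297, minus strand), the phosphatase that releases serine, stood at 5.48, 5.65 and 5.74 in A2780 and 4.87, 5.05 and 4.96 in CP70. It too was lower in every CP70 library, with a log2FC of -0.66 ± 0.17 (FDR 0.00298).

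The serine hydroxymethyltransferases diverged. SHMT2 (chr12:57623356-57628718, plus strand), the mitochondrial enzyme, stood at 7.30, 7.04 and 6.95 in A2780 and 6.66, 6.52 and 6.54 in CP70, a log2FC of -0.53 ± 0.11 (FDR 0.000507). SHMT1 (chr17:18231174-18266877, minus strand), the cytosolic enzyme, stood at 5.63, 5.51 and 5.49 in A2780 and 5.96, 5.83 and 6.06 in CP70, a log2FC of 0.41 ± 0.10 (FDR 0.00352). Each separated the lines with no overlap, in opposite directions. SHMT1 overlaps SMCR8 on the other strand, and SMCR8 fell by 0.61 on the log2 scale (FDR 0.00054), so the overlapping gene moved the other way. Per length, SHMT2 stood at 3.46 ± 0.25 times SHMT1 in A2780 and 1.81 ± 0.15 times in CP70 (SD, n = 3).

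Of the mitochondrial folate enzymes, MTHFD1L, which releases formate, rose the most of the 8 members. MTHFD1L (chr6:151186815-151423023, plus strand) stood at 6.51, 6.25 and 6.24 in A2780 and 7.43, 7.28 and 7.55 in CP70. All CP70 libraries lay above all A2780 libraries, with a log2FC of 1.08 ± 0.12 (FDR 4.35e-07). MTHFD2 (chr2:74413299-74444692, plus strand), the dehydrogenase and cyclohydrolase upstream of it, stood at 7.74, 7.79 and 7.93 in A2780 and 7.51, 7.43 and 7.43 in CP70, a log2FC of -0.37 ± 0.14 (FDR 0.0398). The lines did not overlap, but this call was the weakest of the pair. It was lost without A2780 replicate 2 (FDR 0.063), A2780 replicate 3 (0.138), CP70 replicate 1 (0.0647), CP70 replicate 2 (0.0981) or CP70 replicate 3 (0.095), with quantile normalization (0.0967), without the variance trend (0.0793) and with a replicate block (0.0508). Per length, MTHFD2 stood at 2.22 ± 0.35 times MTHFD1L in A2780 and 0.806 ± 0.074 times in CP70 (SD, n = 3). The size of such ratios depends on the length taken for each gene, while their fold change between lines does not.

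GCSH (chr16:81115550-81130000, minus strand), the H-protein that works with GLDC, ranged from 5.91 to 6.30 in A2780 and from 5.99 to 6.13 in CP70. The libraries overlapped, and the difference was -0.07 with a 95% interval from -0.43 to 0.30 (FDR 0.791). The ratio of GLDC to GCSH per length, which contains the GLDC difference that chose the set, was 0.040 ± 0.014 in A2780 and 0.269 ± 0.026 in CP70 (SD, n = 3). GCSH has 6 annotated processed pseudogenes, MTHFD2 7 and PSAT1 4, of which GCSHP5 and PSAT1P3 are in the table. Neither passed the test in any pair, with FDR from 0.0731 to 0.664. GCSHP5 had a higher mean log2 CPM than GCSH in every line, at 6.68 against 6.11 in A2780 and 4.55 against 4.45 in PEO1. Whether reads were shared between GCSH and GCSHP5 was not tested, so the GCSH level and the ratio of GLDC to it are uncertain. MTHFD2L, a paralog of MTHFD2, fell in PEO4 (log2FC -1.68, FDR 6.09e-05) and not in CP70 (0.24) or PEA2 (-0.25). RPL32P16, which lies within MTHFD1L on the same strand, rose in PEA2 (2.30, FDR 0.0259), where MTHFD1L did not, and was not past the threshold in the other pairs.

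**Figure D2:**
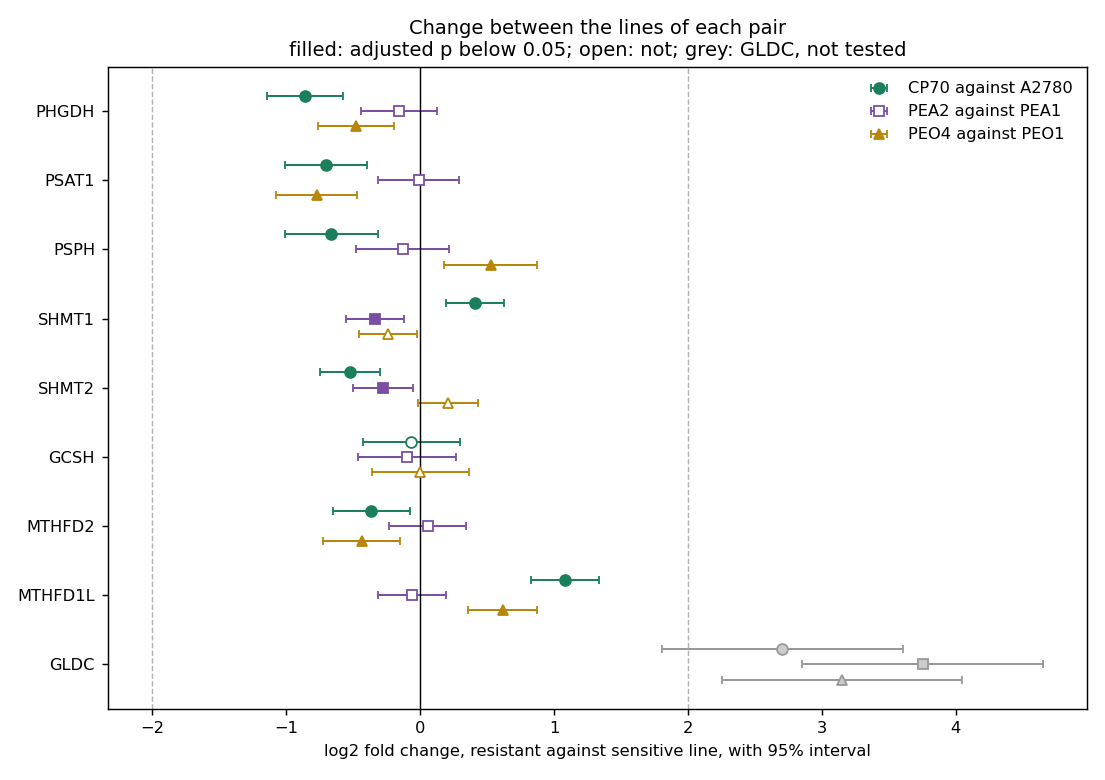
Fitted log2 fold change of each measured member, resistant against sensitive line, with its 95% interval, for CP70 against A2780 (circles), PEA2 against PEA1 (squares) and PEO4 against PEO1 (triangles), where filled symbols passed an FDR below 0.05 and GLDC, in grey, was not tested. The 8 other members lie between -0.86 and 1.08, inside the dashed lines at 2 and -2, and GLDC lies between 2.70 and 3.75.

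In PEA2 against PEA1, few members passed the test, although more of all genes did than in either other pair. SHMT1 and SHMT2 fell, none rose, and 6 of 8 did not pass the test. Over all genes 32.5% rose and 29.4% fell, so the share of members that fell (25%) was near the background and the share that rose (0) below it, and none passed the study's rule, which 14.1% of genes did. The median log2FC of the 8 was -0.11, against 0.01 over all genes.

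SHMT1 stood at 6.23, 6.27 and 6.22 in PEA1 and 5.87, 5.81 and 6.04 in PEA2, a log2FC of -0.34 ± 0.10 (FDR 0.00858). SHMT2 stood at 7.67, 7.65 and 7.56 in PEA1 and 7.38, 7.37 and 7.30 in PEA2, a log2FC of -0.28 ± 0.11 (FDR 0.0315). Neither overlapped between the lines, and their ratio per length was 3.07 ± 0.10 in PEA1 and 3.21 ± 0.33 in PEA2 (SD, n = 3). The SHMT2 call was lost without PEA1 replicate 1 (FDR 0.0789), PEA1 replicate 2 (0.0727), PEA2 replicate 2 (0.051) or PEA2 replicate 3 (0.0847), and without the variance trend (0.0584).

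The serine synthesis genes overlapped between PEA1 and PEA2. PHGDH ranged from 7.38 to 7.47 in PEA1 and from 7.18 to 7.40 in PEA2, with a difference of -0.16 (95% interval -0.44 to 0.12). PSAT1 ranged from 6.71 to 7.37 and from 6.83 to 7.19, a difference of -0.01 (-0.31 to 0.29). PSPH ranged from 5.59 to 6.23 and from 5.56 to 5.96, a difference of -0.13 (-0.48 to 0.22). MTHFD2, MTHFD1L and GCSH overlapped as well, with differences of 0.06, -0.06 and -0.10. The tests of the difference from the other pairs follow below. Of the 9 ovarian markers, 7 rose between these lines, with KRT7 at no more than 3 reads in PEA1 and up to 3913 in PEA2, so the pair differs widely outside the members.

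In PEO4 against PEO1, the opening steps of serine synthesis fell while the closing step rose. PHGDH, PSAT1 and MTHFD2 fell, PSPH and MTHFD1L rose, and SHMT1, SHMT2 and GCSH did not pass the test. Over all genes 19.6% rose and 21.9% fell, so the share of members that rose (25%) was near the background and the share that fell (37.5%) above it. None passed the study's rule, against 6.22% of all genes, and the median log2FC of the 8 was -0.12, against -0.02 over all genes.

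PSAT1 stood at 6.38, 6.59 and 6.65 in PEO1 and 5.63, 5.83 and 5.84 in PEO4, a log2FC of -0.77 ± 0.14 (FDR 0.000227). PHGDH stood at 6.97, 6.95 and 6.98 in PEO1 and 6.76, 6.14 and 6.56 in PEO4, a log2FC of -0.48 ± 0.14 (FDR 0.00772). Every PEO4 library lay below every PEO1 library for both. PSPH went the other way, from 3.61, 3.75 and 3.95 in PEO1 to 4.39, 4.26 and 4.24 in PEO4, a log2FC of 0.53 ± 0.17 (FDR 0.0147). It was at its lowest level of all lines in PEO1, with 37 to 102 reads. The PSPH call was lost without PEO1 replicate 1 (FDR 0.0638) or PEO4 replicate 1 (0.0531) and with voom weights (0.0569). The PHGDH call was lost without PEO4 replicate 2 (0.0709), the library with its lowest value.

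MTHFD1L and MTHFD2 diverged as in the A2780 pair. MTHFD1L stood at 6.21, 6.06 and 6.19 in PEO1 and 6.69, 6.90 and 6.73 in PEO4, a log2FC of 0.62 ± 0.12 (FDR 0.000399). MTHFD2 stood at 7.09, 7.11 and 7.16 in PEO1 and 6.76, 6.57 and 6.72 in PEO4, a log2FC of -0.44 ± 0.14 (FDR 0.0148). The groups did not overlap for either gene, and per length the ratio of MTHFD2 to MTHFD1L was 1.53 ± 0.10 (SD, n = 3) in PEO1 and 0.742 ± 0.105 in PEO4. With the length of all annotated exons, MTHFD2 was below MTHFD1L in PEO1 too, at 12.1 against 14.6 CPM per kilobase. Without PEO4 replicate 2 the MTHFD2 call was lost (FDR 0.0652), while SHMT1 (log2FC -0.32, FDR 0.0309) and SHMT2 (0.31, FDR 0.0358) passed. With all libraries SHMT1 differed by -0.24 (95% interval -0.46 to -0.02, FDR 0.0719), SHMT2 by 0.21 (-0.01 to 0.44, FDR 0.126) and GCSH by 0.00 (-0.36 to 0.36).

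Whether the change differed between pairs was tested as a contrast of 2 pair changes in the same fit. MTHFD1L changed differently in every contrast of pairs. Between the A2780 and PEA pairs 4 of 8 members differed, against 57.5% of all genes. Between the A2780 and PEO pairs it was 4 of 8 against 47.5%, and between the PEA and PEO pairs 5 of 8 against 58.7%, so the members' shares were near the background. PSPH had the largest such difference, its log2FC being 1.19 ± 0.23 lower in the A2780 pair (-0.66) than in the PEO pair (0.53), with an FDR of 0.000301. For PSAT1 no difference between CP70 and PEO4 was detected (0.07, 95% interval -0.36 to 0.50), and both differed from its change in PEA2, by 0.69 and 0.76 (FDR 0.00713 and 0.00354). GCSH did not pass in any of these contrasts, with intervals of the difference from -0.61 to 0.54 over the 3.

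Over all 3 pairs, a linear model with pair and sensitivity as terms called 3 of 8 members, against 24.1% of all genes. PHGDH (-0.50 ± 0.11, FDR 0.00441) and PSAT1 (-0.50 ± 0.12, FDR 0.00879) were lower and MTHFD1L (0.55 ± 0.14, FDR 0.00948) was higher in resistant lines. MTHFD2 missed the threshold (-0.25 ± 0.10, FDR 0.0824) and passed it without PEA2 replicate 2 (-0.34, FDR 0.00327). This model takes 18 libraries as replicates. With the 3 pair differences as replicates, limma called 0 of 12853 genes at an FDR below 0.05 (395 at an unadjusted p below 0.05, none of them among the 8), so the averages describe these 6 lines. Pair by pair, none of the 8 members rose in all 3 pairs, as 205 genes (1.59%) did, and none fell in all 3, as 155 genes (1.21%) did. PSPH and SHMT1 each rose in 1 pair and fell in another, a pattern of 3535 genes (27.5%). PHGDH, PSAT1, SHMT2 and MTHFD2 fell in 2 pairs, and MTHFD1L rose in 2.

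The sensitive lines also differed from each other, by up to 2.08 on the log2 scale, where the pair changes of the 8 members reached 1.08. At an FDR below 0.05, 7 of 8 members differed between A2780 and PEO1 (72% of all genes), 6 between A2780 and PEA1 (71.9%) and 6 between PEA1 and PEO1 (68.1%). PSPH was 2.08 ± 0.17 higher in PEA1 than in PEO1 (FDR 1.27e-09) and 1.85 ± 0.17 higher in A2780 than in PEO1 (FDR 3.62e-09). GCSH was 1.66 ± 0.17 and PSAT1 1.64 ± 0.14 higher in A2780 than in PEO1. SHMT1 went the other way, a difference of -0.73 ± 0.10 between A2780 and PEO1. These contrasts share libraries with the pair changes above.

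Line by line, GLDC spanned 6.50 on the log2 scale between the lowest and the highest line mean, PSAT1 2.41, PSPH 2.08, MTHFD1L 1.67, GCSH 1.66, PHGDH 1.16, MTHFD2 1.14, SHMT2 1.05 and SHMT1 0.73. PSAT1 had the clearest order, from PEO4 through PEO1, PEA2, PEA1 and CP70 to A2780, with only PEA2 and PEA1 overlapping. MTHFD1L ran from PEA2 to CP70, and PEA2 overlapped PEA1 and PEA1 overlapped PEO1. The GCSH order followed the pairs, with PEO1 and PEO4 lowest, then PEA2 and PEA1, then CP70 and A2780, and the lines overlapped within each pair and not between neighbouring pairs. All pairings of 2 members were correlated across the 6 line means, which share no libraries but are few. The highest were PSAT1 with MTHFD2 (r = 0.92), PSAT1 with GCSH (r = 0.92) and GCSH with MTHFD2 (r = 0.82). The lowest was SHMT2 with MTHFD1L (r = -0.82). These extremes were picked after all pairings were seen.

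Levels of different genes were compared per length, as RPKM, here the CPM divided by the length of the reference transcript in kilobases. By the reads assigned to it, GLDC was the lowest member in every line, at 1.74 ± 0.55 in A2780, 11.3 ± 0.49 in CP70, 0.0618 ± 0.107 in PEA1, 1.67 ± 0.416 in PEA2, 0.300 ± 0.116 in PEO1 and 2.86 ± 0.749 in PEO4 (SD, n = 3). In CP70 GLDC held 43.4 CPM and GLDCP1 25.1 CPM, and the next member, PSPH, stood at 15.7 RPKM. How many GLDCP1 reads belong to GLDC was not tested, so the rank of GLDC is uncertain there. GCSH, the partner of GLDC, stood between 14.1 and 44.4, with the reads of GCSHP5 left aside. PSAT1 had the highest mean in A2780 (133 ± 21.2) and CP70 (80.9 ± 1.96), PHGDH in PEA1 (91.5 ± 3.10), PEA2 (82.2 ± 7.25) and PEO1 (66.9 ± 0.83), and SHMT2 in PEO4 (61.7 ± 9.06). The libraries of the highest member overlapped those of the next in A2780 (PSAT1 and PHGDH), PEA1 (PHGDH and SHMT2, the latter 91.5 ± 3.53) and PEO4 (SHMT2 and PHGDH), so these could not be ranked. With the length of all annotated exons in place of the reference transcript, which is 9187 against 1866 bases for PHGDH, PSAT1 had the highest mean in 5 lines and SHMT2 in PEO4, and GLDC stayed lowest in every line.

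**Figure D3:**
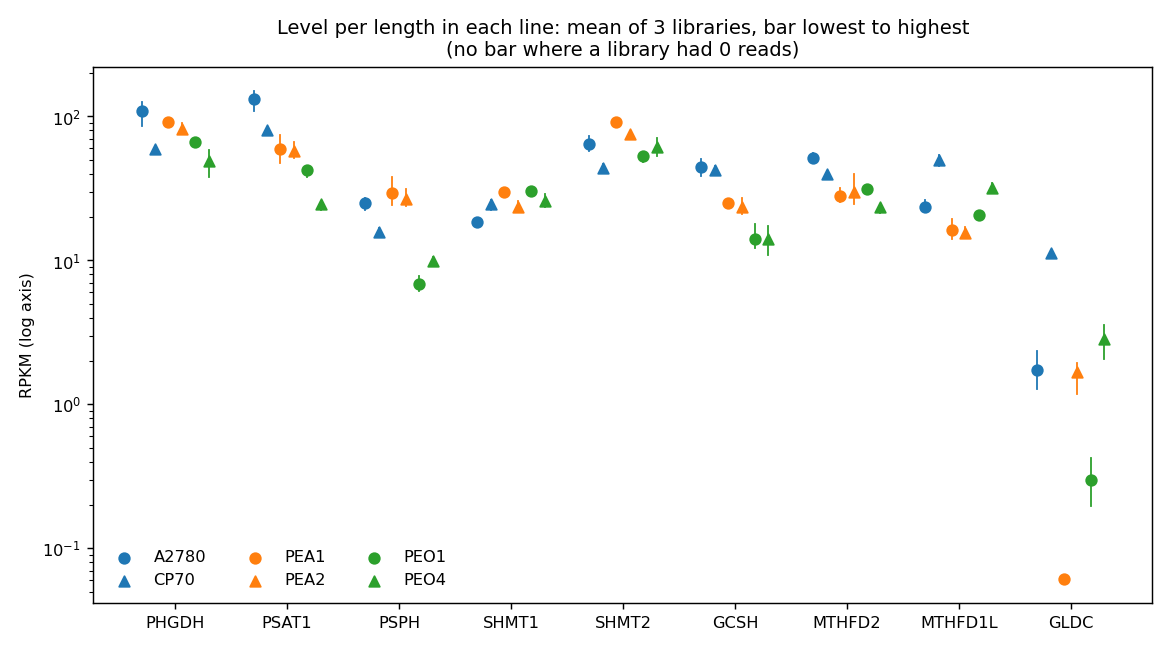
Level per length of each measured member in the 6 lines, as RPKM on a log axis, with circles for sensitive and triangles for resistant lines and bars from the lowest to the highest of 3 libraries. By the reads assigned to it, GLDC is the lowest member in every line, from 0.0618 in PEA1 to 11.3 in CP70, and PSAT1 in A2780 is the highest mean at 133.

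Among the 5 genes whose pattern was most like that of GLDC over the 18 libraries, by Pearson correlation of log2 values among 12489 genes with a mean above 0, were GLDCP1 (r = 0.94), KAZALD1 (0.92), EFCAB4A (0.91) and COX7A2 (0.90). All 5 had a higher mean in the resistant line of each pair, which the GLDC pattern favours. By Spearman correlation 2 of these 5 were also among the 5 highest. The libraries of a line share their line, so the correlations rest mainly on 6 line means. KAZALD1, which encodes a secreted Kazal-type protein, held at most 3 reads in PEA1 and 24 to 51 in PEA2, and its log2 differences were 1.15, 3.93 and 2.34. Among the members, MTHFD1L was most like GLDC (r = 0.75), and SHMT2 (-0.63), SHMT1 (-0.51) and PHGDH (-0.43) ran against it.

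Of the measured genes reaching within 1 Mb of GLDC, 9 were outside the set. In CP70 against A2780, 5 of the 9 rose and none fell (22.2% of all genes rose), with log2FC from 0.51 for KIAA1432 to 0.95 for ERMP1, and UHRF2 (0.73) and KDM4C (0.80), the nearest measured coding genes on either side, among them. In PEA2 against PEA1, ERMP1 (2.01, FDR 8.35e-10) and KDM4C (0.91, FDR 0.00906) rose and the other 7 did not pass. In PEO4 against PEO1, none rose and ERMP1 (-1.01), RANBP6 (-0.50) and the pseudogene SNRPEP2 (-1.69) fell. The 2 that rose in PEA2 are a smaller share of the 9 than the 32.5% of all genes that rose there, and 19.6% of all genes rose in PEO4.

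**Figure D4:**
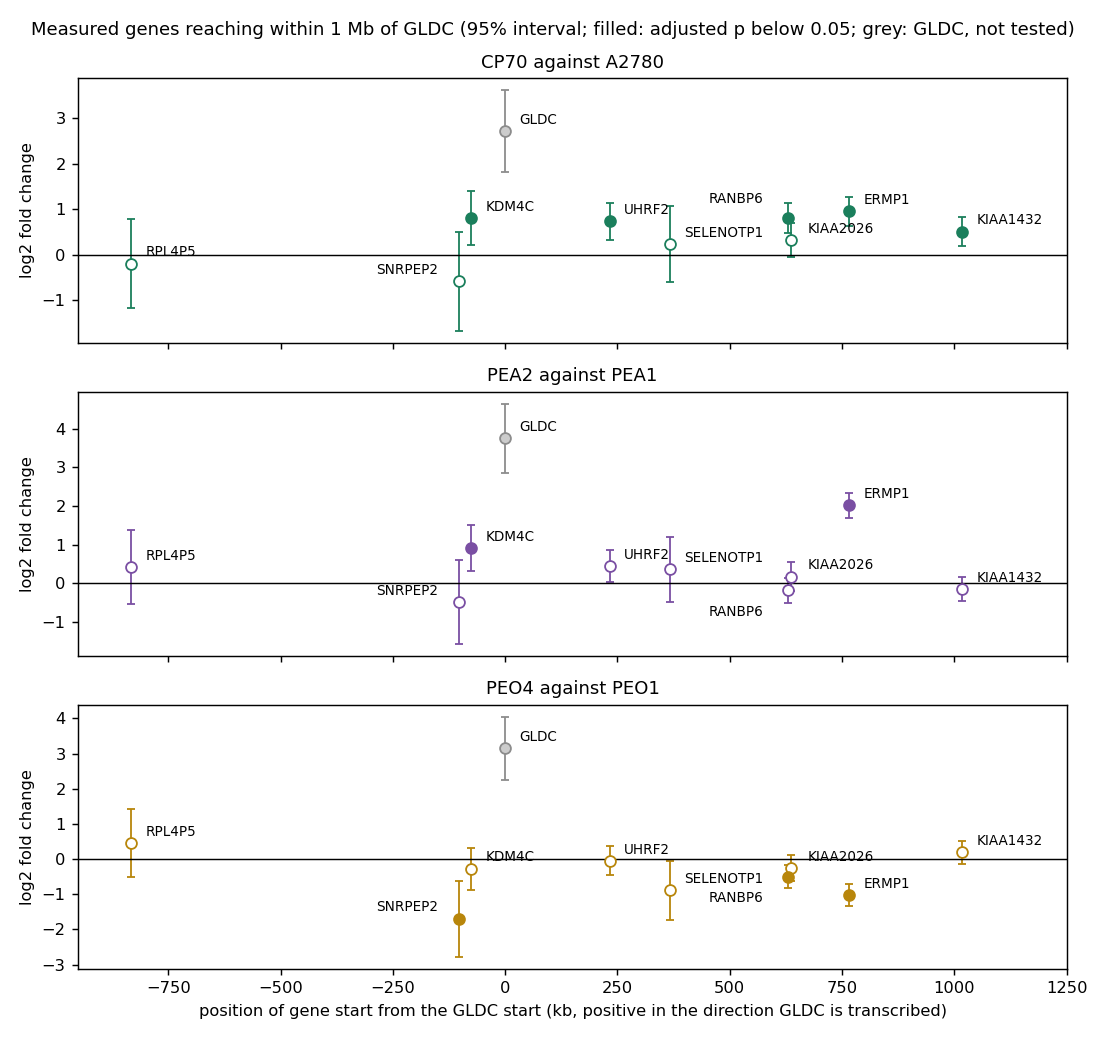
Log2 fold change, resistant against sensitive line, of GLDC (grey, not tested) and of 9 measured genes near it, by the distance of each gene's start from the GLDC start in kb, with 95% intervals and filled symbols for an FDR below 0.05. Between 0 and 5 neighbours rose in each pair, none reached the GLDC value, and ERMP1 went from 2.01 in the PEA pair to -1.01 in the PEO pair.

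Of 17 other listed genes of the folate cycle 13 were measured, and 1 rose and 3 fell in CP70, 4 rose and 4 fell in PEA2, and 5 rose and 5 fell in PEO4. Over all genes, the shares that rose and fell were 22.2% and 17.7% in CP70, 32.5% and 29.4% in PEA2, and 19.6% and 21.9% in PEO4, and the counts of this and the next lists are small and describe those genes only. ALDH1L2, the mitochondrial enzyme that oxidises formyl-folate to carbon dioxide, was the lowest of the list in CP70 (-2.68 ± 0.34, FDR 2.45e-06) and PEO4 (-2.33 ± 0.34, FDR 1.69e-05), and it also fell in PEA2 (-0.97 ± 0.34, FDR 0.0203), a value named after it was seen. Over all genes 1.21% fell in all 3 pairs. GGH, which trims folate polyglutamates, was the highest in CP70 (1.71, FDR 4.4e-08). In PEA2, TYMS (thymidylate synthase) fell by 2.36 on the log2 scale (FDR 2.29e-12). In PEO4 the folate receptor gene FOLR1 had up to 48 reads against at most 1 in PEO1. FOLR1 was also counted as falling in CP70, where no library of the pair held more than 1 read, so that call has no depth behind it.

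Of the glycine cleavage partners, which make, attach or regenerate the lipoate arm of the H-protein, 2 of 4 were measured, and LIAS, which makes the lipoate that GCSH carries, fell in CP70 (-0.98 ± 0.30, FDR 0.0123) and DLD fell in PEA2 (-0.60 ± 0.12, FDR 0.00017). Of 11 serine and glycine transporters 8 were measured, and 2 rose and none fell in CP70, 4 rose and 1 fell in PEA2, and 2 fell and none rose in PEO4. SLC1A4, a neutral amino acid exchanger that carries serine, rose in CP70 (2.35 ± 0.23, FDR 6.26e-08) and fell in PEO4 (-1.23 ± 0.23, FDR 0.000249). SFXN1, the mitochondrial serine carrier, was the lowest of the list in PEA2 (-0.54 ± 0.11, FDR 0.000321).

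Purine synthesis, which uses both glycine and formyl-folate, was measured for all 6 listed genes. In CP70 1 rose and 2 fell, in PEA2 2 rose and 3 fell, and in PEO4 2 rose and 3 fell. PPAT, the committing enzyme of the pathway, was the lowest in each pair (-0.79, -1.13 and -0.64, SE 0.11 each, FDR at most 0.000107). A fall in all 3 pairs was seen for 1.21% of all genes. ADSL was the highest in CP70 (0.75, FDR 0.000392) and PEA2 (0.92, FDR 2.24e-05), and GART in PEO4 (0.92, FDR 5.65e-07). Of 9 genes of the methionine cycle and transsulfuration 6 were measured, with 1 rising and 3 falling in CP70, 2 and 1 in PEA2, and none and 2 in PEO4, and CBS, which draws serine into cysteine synthesis, was the lowest in CP70 (-0.98, FDR 5.13e-06) and the highest in PEA2 (0.84, FDR 2.08e-05). Of 19 other serine and glycine enzymes 7 were measured, with 1 rising in CP70, 2 rising and 2 falling in PEA2, and 1 falling in PEO4.

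Among 6 listed regulators of these genes 5 were measured, and 2 rose and 1 fell in CP70, 3 rose and 1 fell in PEA2, and 1 rose and none fell in PEO4. ATF4, the transcription factor that drives serine synthesis genes under amino acid shortage, fell in CP70 (-0.98 ± 0.15, FDR 1.69e-05), where PHGDH, PSAT1 and PSPH fell, and rose in PEA2 (1.39 ± 0.15, FDR 8.86e-08), where none of the 3 passed the test. In PEO4, where PHGDH and PSAT1 fell and PSPH rose, the ATF4 difference was 0.02 ± 0.15 (FDR 0.93), and a link between these levels was not tested. NFE2L2, another regulator of serine synthesis, was the highest of the list in PEO4 (1.32 ± 0.09, FDR 9.06e-10). It also rose in CP70 (0.24 ± 0.09, FDR 0.0464) and PEA2 (0.53 ± 0.09, FDR 4.85e-05), values named after they were seen. Over all genes 1.59% rose in all 3 pairs. MYCN was the lowest in PEA2, with 0 reads in every library there against up to 22 in PEA1. Of 12 proliferation genes 2 rose and 2 fell in CP70, 5 and 5 in PEA2, and 1 and 6 in PEO4, and their part in the changes of the members was not tested.

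**Figure D5:**
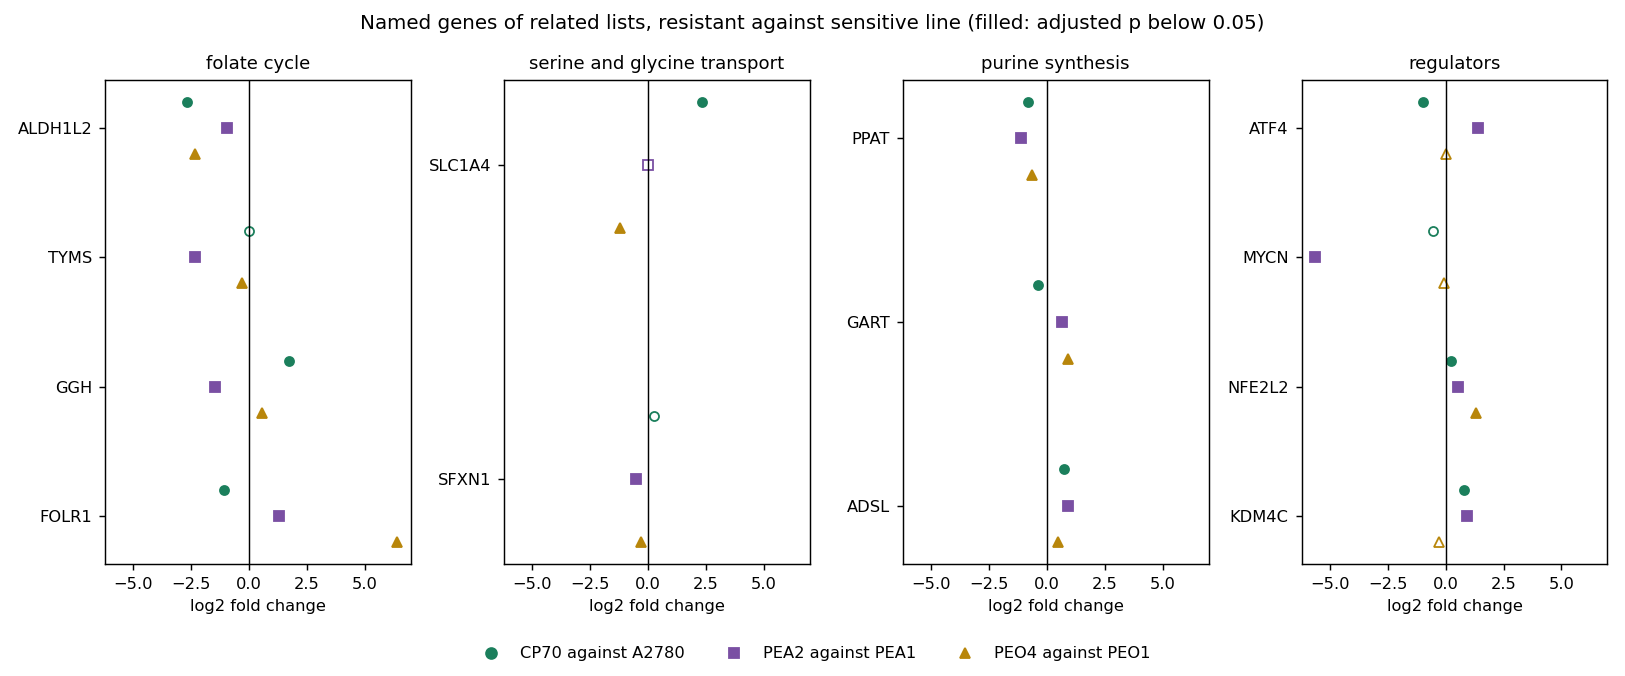
Log2 fold change, resistant against sensitive line, of the genes named in the text from 4 related lists in the 3 pairs, with filled symbols for an FDR below 0.05. ALDH1L2 and PPAT lie below 0 in all 3 pairs, and 1.21% of all genes fell in all 3 at an FDR below 0.05. ATF4 lies at -0.98 in the A2780 pair and 1.39 in the PEA pair.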

How the data were processed

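RNA-seq of 18 libraries was used, and the ATAC-seq and platinum adduct data were not analysed here. The submitters' processing notes name Bowtie2, featureCounts, limma and hg19, and the kit named in the labels keeps strand, but whether the counting used it is not given in the sources used here. The authors deposited log2 CPM values of 12853 genes, with 0.5 reads added to each count. Whole reads came back from 100% of values (tolerance 0.01 reads) and served for depth, pooled ratios and RPKM. The deposited values were fitted with limma 3.58.1 in R 4.3.3, with a mean for each of 6 lines, a variance trend, and Benjamini-Hochberg adjustment over all genes, and the code was tested on simulated data. Rose and fell mean an FDR below 0.05. Gene spans and transcripts came from GENCODE on GRCh37. The members and the gene lists were chosen with earlier results of these data known. Named are all members, the 5 genes most like GLDC, copies, overlapping genes and neighbours of members, and the highest and lowest gene of each list per pair that passed, of which some are not reported here. Alternatives were a replicate block, each pair alone, a filter on low values, quantile normalization, no variance trend, voom weights, 2 reads added, 2 stricter fold thresholds, pair differences as replicates, Spearman correlation and leaving out each library.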

Additional observations from a re-analysis of the deposited data

Results flagged for a closer look

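The values below are differences between pairs in the resistant-against-sensitive log2FC, tested in the limma fit over 12853 genes, each with its SE. MTHFD1L, the formate-releasing enzyme, stood apart in every contrast. Its change in the A2780 pair exceeded that in the PEA pair by 1.14 ± 0.17 (FDR 1.26e-05) and that in the PEO pair by 0.47 ± 0.17 (FDR 0.0325), and the PEA change minus the PEO change was -0.68 ± 0.17 (FDR 0.00234).

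Among the serine synthesis genes, PSPH changed by -1.19 ± 0.23 in the A2780 pair relative to the PEO pair (FDR 0.000301) and by -0.66 ± 0.23 in the PEA pair relative to the PEO pair (FDR 0.0214). PSAT1 differed by -0.69 ± 0.20 between the A2780 and PEA pairs (FDR 0.00713) and by 0.76 ± 0.20 between the PEA and PEO pairs (FDR 0.00354). PHGDH differed by -0.70 ± 0.19 between the A2780 and PEA pairs (FDR 0.0041).

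SHMT1 rose in CP70 and fell in PEA2, and the difference of its A2780 pair change was 0.74 ± 0.15 from the PEA pair (FDR 0.000232) and 0.65 ± 0.15 from the PEO pair (FDR 0.00114). SHMT2 was -0.74 ± 0.15 in the A2780 pair (FDR 0.000476) and -0.49 ± 0.15 in the PEA pair (FDR 0.00971), both relative to the PEO pair. MTHFD2 differed by 0.49 ± 0.19 between the PEA and PEO pairs (FDR 0.0358). At an FDR below 0.05, 47.5% to 58.7% of all genes differed in these contrasts.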

How the results depend on the processing

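GLDC kept its direction in every pair under every alternative. That direction chose the set and the alternatives reuse the same libraries, so this is a description only. Its log2 difference was 2.31 for CP70 and 4.35 for PEO4 with quantile normalization and 2.22 for PEA2 with 2 reads added. Leaving out 1 library gave 2.52 to 2.93, 3.38 to 4.33 and 2.86 to 3.42 in the A2780, PEA and PEO pairs. With a log2FC threshold of 1, 1 member rose in CP70 (MTHFD1L), 0 rose in PEO4 and 0 fell in any pair, and with a threshold of 2 all counts were 0. Without the variance trend 1 member fell in PEA2 (SHMT1), with voom weights 1 rose in PEO4 (MTHFD1L), and with pair differences as replicates the linear model had 0 rising and 0 falling. Spearman correlation shared 2 of the 5 genes most like GLDC.

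Leaving out 1 library, 4 to 5 members fell in CP70, 1 to 2 in PEA2, 2 to 3 in PEO4 and 2 to 3 in the linear model, while 2 to 2 rose in CP70, 0 to 0 in PEA2, 1 to 3 in PEO4 and 1 to 1 in the linear model. Between pairs, 4 to 5 (A2780 and PEA), 3 to 5 (A2780 and PEO) and 3 to 6 (PEA and PEO) differed, the last at 3 without PEA1 replicate 3 or PEA2 replicate 2. Between sensitive lines it was 6 to 7, 6 to 7 and 4 to 6. Signs changed, without a call, for GCSH (-0.16 to 0.0297 in CP70, -0.16 to 0.18 in PEO4) and, in PEA2, MTHFD1L (-0.16 to 0.0702), MTHFD2 (-0.17 to 0.18, and -0.0864 with quantile normalization), PSAT1 (-0.16 to 0.17) and PSPH (-0.26 to 0.0628). Quantile normalization also moved MTHFD2 past the threshold in the linear model (-0.26, FDR 0.0467).

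Same-numbered libraries of a pair had deviations from their line means correlated at -0.18 to 0.22. Differently numbered libraries were not compared, so whether the replicate numbers pair the libraries was not settled. A replicate block left 31 of 32 results (8 members in 3 pairs and the linear model) in the same direction and on the same side of the threshold, and MTHFD2 in CP70 lost its call (-0.37, FDR 0.0508). The cause of these shifts was not tested. GLDC and GLDCP1 in PEA1 and PEO1 lay at 0 to 5 reads per library, so their fold changes are set by few reads.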
